A study of Mus musculus with 8 samples.

Results

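The basement membrane collagens IV, XV and XVIII were followed in primary murine articular chondrocytes by RNA-Seq. They are the 8 genes *Col4a1* to *Col4a6*, *Col15a1* and *Col18a1*, chosen by name from the 54658 gene symbols counted, and 7 of the 8 were abundant enough to be tested. The cells came from femoral head cartilage of wild-type mice aged 3 weeks and were seeded in culture the day before treatment. One group of 4 samples received IL-1β, the cytokine used to model joint inflammation, at 1 ng/mL for 24 h, and the other group of 4 samples received vehicle. The comparison asks how the transcriptome of chondrocytes responds to IL-1β. The labels do not say whether the replicates were separate cultures or animals, so p-values measure only the spread between these samples, which may be technical.

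Collagen IV is the network-forming collagen of basement membranes. Its chains are encoded as α1 to α6 and combine into trimers: α1 with α2, which is present in nearly every basement membrane, α3 with α4 and α5, known from the kidney glomerulus, and α5 with α6. Collagens XV and XVIII, the multiplexins, carry glycosaminoglycan side chains and sit at the border between basement membranes and the matrix, and the C-terminal end of collagen XVIII is cut to endostatin. Cartilage has no basement membrane in the usual sense, but basement membrane components are known from the pericellular matrix, the thin shell around each chondrocyte.

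The collagen IV genes lie in pairs, head to head on opposite strands. In the GENCODE vM21 annotation of GRCm38, *Col4a1* (chromosome 8, 11198423 to 11312826, minus strand) and *Col4a2* (11312805 to 11449287, plus strand) overlap by 22 bases. *Col4a4* (chromosome 1, 82448423 to 82586849, minus strand) and *Col4a3* (82586921 to 82722059, plus strand) are separated by 71 bases. *Col4a6* (chromosome X, 141165403 to 141474076, minus strand) and *Col4a5* (141475385 to 141689234, plus strand) are separated by 1308 bases. *Col15a1* (chromosome 4, 47208161 to 47313167, plus strand) and *Col18a1* (chromosome 10, 77052178 to 77166548, minus strand) lie on chromosomes of their own. Exons shared with another annotated gene made up 5.65% of the exon bases of *Col4a3*, and between 0 and 0.982% of those of the other 7 genes.

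The sequences before the starts of *Col4a5*, *Col4a6*, *Col15a1* and *Col18a1* are shown because these are the members whose mRNA fell after IL-1β. They are from RefSeq (GRCm38.p6), 5′ to 3′ on the strand of each gene, without annotated exon bases, and for *Col18a1* they belong to the outer of its 2 starts. Capitals mark the CCAAT box and the GC box GGGCGG on either strand, which do not overlap here.
*Col4a5*, chrX:141475169-141475384, plus strand: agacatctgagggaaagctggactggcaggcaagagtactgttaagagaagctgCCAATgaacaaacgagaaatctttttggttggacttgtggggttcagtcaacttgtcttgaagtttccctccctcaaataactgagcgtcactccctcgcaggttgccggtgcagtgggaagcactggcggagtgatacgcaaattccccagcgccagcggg
*Col4a6*, chrX:141474077-141474326, minus strand: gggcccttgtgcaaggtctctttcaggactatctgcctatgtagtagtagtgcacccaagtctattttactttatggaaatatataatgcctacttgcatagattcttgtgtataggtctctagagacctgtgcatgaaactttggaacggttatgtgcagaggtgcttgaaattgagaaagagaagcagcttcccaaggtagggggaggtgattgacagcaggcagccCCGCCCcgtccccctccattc
*Col15a1*, chr4:47207762-47208011, plus strand: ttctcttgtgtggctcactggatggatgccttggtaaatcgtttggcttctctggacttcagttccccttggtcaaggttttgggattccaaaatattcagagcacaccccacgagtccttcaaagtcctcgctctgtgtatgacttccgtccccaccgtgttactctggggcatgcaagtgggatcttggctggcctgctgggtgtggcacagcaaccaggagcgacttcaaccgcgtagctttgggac
*Col18a1*, chr10:77166549-77166780, minus strand: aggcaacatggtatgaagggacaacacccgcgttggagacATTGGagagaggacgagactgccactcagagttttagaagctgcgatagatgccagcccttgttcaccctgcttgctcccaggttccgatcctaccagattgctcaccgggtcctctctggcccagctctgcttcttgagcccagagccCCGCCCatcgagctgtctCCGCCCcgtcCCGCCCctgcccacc

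The windows of 250 bases before to 50 bases after each RefSeq start were searched on both strands for 5 motifs: the TATA box as TATAAA, the CCAAT box, the GC box as GGGCGG, the AP-1 site as TGANTCA, and the NF-κB consensus. The table held windows for 7 of the 8 members, with *Col4a3* not among them. The TATA box and the AP-1 site occurred in none of the 8 windows of these genes, and in 13.6% and 7.81% of all 32851 promoter windows. The NF-κB consensus occurred once in the window of *Col4a2*, and in 8.46% of all windows. The CCAAT box, present in 37.4% of all windows, occurred 1 time each in those of *Col4a1* and *Col4a2*, which rose after IL-1β, and in those of *Col4a5* and the outer start of *Col18a1*. GGGCGG, present in 35.7% of all windows, occurred 3 times in the window of *Col4a2*, 3 times in the outer window of *Col18a1*, and 1 time each in those of *Col4a1*, *Col4a5* (in exon bases not printed above) and *Col4a6*. The window of *Col15a1* held none of the 5 motifs. The *Col4a1* and *Col4a2* windows were 74.0% and 73.7% G or C, against 48.3% for *Col4a6*, 52.7% for *Col4a5* and a median of 52.7% over all windows. All 250 bases before the starts of *Col4a1* and *Col4a2* are annotated as exon and are not printed.

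The total count per sample was 10992355 to 17456063, and at this depth a floor of 3 counts is 0.174 to 0.271 CPM (read counts relative to the total over the tested genes, scaled by TMM). Abundances are given in CPM as mean ± SD (n = 4). A differentially expressed gene (DEG) had a log2 fold change beyond 1 in either direction and an adjusted p-value under 0.05 from edgeR's quasi-likelihood test, adjusted over all 14404 genes tested. The labelled cell type was checked against marker lists. All 11 chondrocyte markers were tested, with 10 DEGs lower (against 2.35% of all genes tested). Their summed abundance was 14899 to 15488 CPM in the vehicle samples and 3773 to 4146 CPM in the IL-1β samples. Of 10 endothelial markers, 2 were tested, and *Cdh5*, *Tie1*, *Emcn* and *Cldn5* had 3 or fewer reads in every sample.

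The response to IL-1β differed in direction between members. Of the 7 genes tested, 3 were DEGs and all 3 were lower: *Col4a5*, *Col4a6* and *Col15a1* (against 2.35% of all genes tested that were DEGs and lower, and 2.86% that were DEGs and higher). With an adjusted p-value under 0.05 as the only criterion, 4 were lower, with *Col18a1* added (19.8% of all genes tested), and 2 were higher, *Col4a1* and *Col4a2* (20.4% of all genes tested). For the same 4 and 2 genes, all IL-1β samples lay on one side of all vehicle samples, as for 18.2% of all genes tested on the lower side and 18.7% on the higher side. The median log2 fold change of the tested members was -0.46, and that of all genes tested was -0.0012. In bulk RNA, fewer cells of a type and less RNA per cell cannot be told apart.

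**Figure D1:**
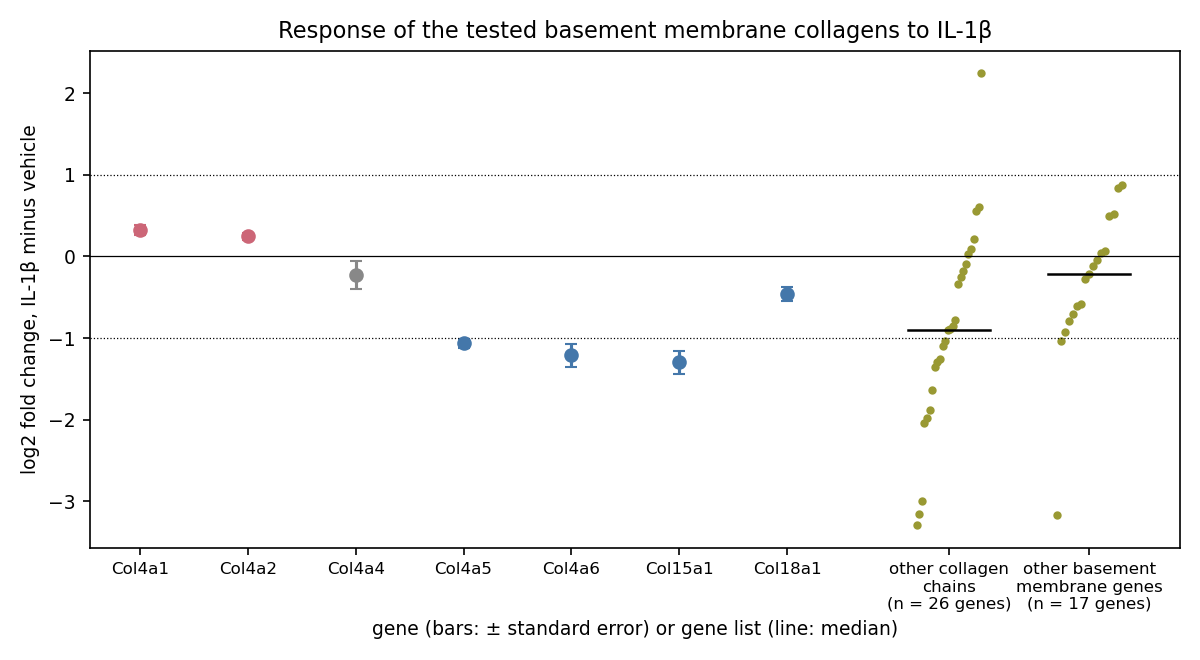
Log2 fold change of IL-1β against vehicle (vertical axis) for the 7 tested basement membrane collagens, with standard errors from edgeR (red, higher with an adjusted p under 0.05; blue, lower; grey, adjusted p of 0.327), and for each of 26 other collagen chains and 17 other basement membrane genes, with the median of each list as a line. Dotted lines mark log2 fold changes of 1 and -1, and *Col4a5*, *Col4a6* and *Col15a1* lie below the lower one while *Col4a1* and *Col4a2* lie above 0.

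*Col4a1* and *Col4a2*, which encode the chains of the common trimer, were higher after IL-1β. *Col4a1* had 25.8, 23.2, 25.7 and 23.2 CPM in IL-1β replicates 1 to 4 and 18.9, 19.8, 18.7 and 20.6 CPM in vehicle replicates 1 to 4. The lowest IL-1β sample thus lay above the highest vehicle sample. The means were 24.4 ± 1.47 and 19.5 ± 0.903 CPM, a 1.25-fold rise (log2 fold change 0.33 with a standard error of 0.0635, adjusted p = 0.000116 from edgeR). *Col4a2* had 54.8, 59.4, 56.25 and 57.3 CPM in the IL-1β samples, against 49.4, 48.2, 46.4 and 47.7 CPM in the vehicle samples, again without overlap. It rose 1.19-fold, the vehicle mean being 47.9 ± 1.27 and the IL-1β mean 56.9 ± 1.94 CPM (log2 fold change 0.25 with a standard error of 0.0413, adjusted p = 1.47e-05 from edgeR). Both rises stayed well short of the fold change that defines a DEG.

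*Col4a3* and *Col4a4*, whose chains join α5 in the glomerular type of network, had the lowest mean levels of the members per kilobase of gene length. Only *Col4a3* was near the lower end of detection. *Col4a3* was counted with 9, 6, 11 and 8 reads after IL-1β and with 5, 8, 15 and 5 reads after vehicle, and it did not pass the filter of a CPM above 1 in at least 4 samples. Its groups overlapped, and a difference was not detectable at this depth (log2 fold change 0.22, standard error 0.400, adjusted p = 0.781 from edgeR without a filter). *Col4a4* was counted with 43, 33, 47 and 34 reads with IL-1β and 67, 52, 44 and 48 reads with vehicle. Its mean abundance was 2.87 ± 0.701 CPM against 3.30 ± 0.390 CPM, with overlapping groups (log2 fold change -0.23, standard error 0.173, adjusted p = 0.327 from edgeR).

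*Col4a5* and *Col4a6*, the X-linked pair whose chains can combine with each other, both fell. *Col4a5* had 25.2, 25.9, 21.6 and 24.8 CPM in the IL-1β samples and 52.8, 49.3, 49.5 and 51.0 CPM in the vehicle samples. The groups were far apart, and the mean with IL-1β was 47.9% of that with vehicle in the fit (log2 fold change -1.06, standard error 0.0534, adjusted p = 5.86e-16 from edgeR). *Col4a6* was expressed at a lower level, with 3.16, 2.39, 2.68 and 2.13 CPM after IL-1β and 6.02, 5.74, 5.58 and 6.53 CPM after vehicle. It was reduced to 43.1% of vehicle (log2 fold change -1.21, standard error 0.144, adjusted p = 5.39e-08 from edgeR), and every IL-1β sample lay below every vehicle sample. These values rest on 30 to 45 reads per IL-1β sample and 78 to 104 reads per vehicle sample for *Col4a6*, and on 279 to 912 reads per sample for *Col4a5*.

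Both multiplexins fell. *Col15a1* had 3.53, 2.60, 4.89 and 2.99 CPM in the IL-1β samples, against 8.28, 9.10, 9.37 and 8.24 CPM in the vehicle samples. IL-1β replicate 3 was the highest of its group but still below every vehicle sample. The mean was 3.50 ± 0.998 CPM against 8.75 ± 0.575 CPM, which is 40.8% of vehicle in the fit (log2 fold change -1.29, standard error 0.142, adjusted p = 1.33e-08 from edgeR). *Col18a1*, the source of endostatin, had 10.5, 9.70, 11.3 and 12.3 CPM in the IL-1β samples, against 15.3, 15.6, 14.3 and 15.2 CPM in the vehicle samples. It fell to 72.5% of vehicle without overlap between the groups (log2 fold change -0.46, standard error 0.0859, adjusted p = 6.04e-05 from edgeR), a change within the DEG threshold. The counts do not separate the transcripts from its 2 starts.

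The fold changes of the 3 DEGs lay close to the threshold. When edgeR's glmTreat asked whether each change was larger than a log2 fold change of 1, the adjusted p-values were 1 for *Col4a5*, 0.607 for *Col4a6* and 0.188 for *Col15a1*, so that none of the 3 calls remained, although 175 genes over all were still lower.

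Levels were compared between members per kilobase of gene length, since the genes differ in length. In the vehicle samples the order was *Col4a5* (7.54 ± 0.242 CPM per kb), *Col4a2* (7.24 ± 0.192), *Col4a1* (2.61 ± 0.121), *Col18a1* (2.15 ± 0.0797), *Col15a1* (1.38 ± 0.0906), *Col4a6* (0.748 ± 0.0521), *Col4a4* (0.311 ± 0.0368) and *Col4a3* (0.0541 ± 0.0365). The ranges of *Col4a5* and *Col4a2* overlapped, although *Col4a5* was the higher in each vehicle sample. The ranges of all other neighbours in this order did not overlap. In the IL-1β samples *Col4a2* led with 8.60 ± 0.293 CPM per kb, and *Col4a5* (3.63 ± 0.282) and *Col4a1* (3.28 ± 0.197) followed with overlapping ranges. *Col4a6* (0.325 ± 0.0554) and *Col4a4* (0.271 ± 0.0661) also overlapped after IL-1β, although *Col4a6* was the higher in each IL-1β sample. Among the 33 collagen genes tested, *Col4a5* ranked 16 and *Col4a2* ranked 18 in the vehicle samples, and *Col2a1*, the main fibril collagen of cartilage, ranked first with 1215 CPM per kb.

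**Figure D2:**
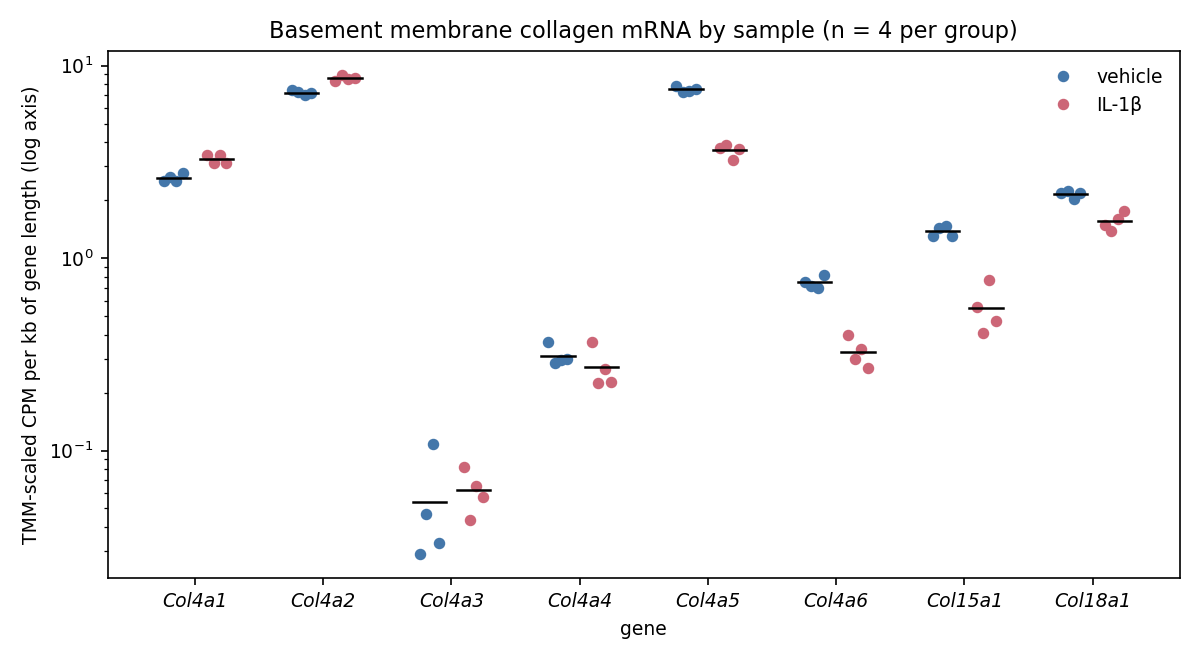
TMM-scaled CPM per kilobase of gene length (vertical axis, log scale) of the 8 basement membrane collagens in each vehicle (blue) and IL-1β (red) sample, with the mean of 4 samples as a line. *Col4a5* and *Col4a2* lie close together in the vehicle samples, with *Col4a5* the higher in each, and apart in the IL-1β samples. *Col4a3* is the lowest in both groups.

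Within collagen IV, the chain mRNAs shifted toward α1 and α2. Of the summed level of the 6 chains per kilobase, *Col4a1* and *Col4a2* together held 53.2% ± 0.713 (SD, n = 4) in the vehicle samples and 73.5% ± 1.49 (SD, n = 4) in the IL-1β samples. *Col4a5* and *Col4a6* held 44.8% ± 0.576 and 24.4% ± 1.35. The ranges did not overlap, with 52.6 to 54.2% against 71.8 to 75.4% for the first pair and 44.0 to 45.3% against 22.5 to 25.4% for the second. *Col4a3* and *Col4a4* stayed at 1.77 to 2.25% with vehicle and 1.63 to 2.74% with IL-1β. The summed level itself was 18.5 ± 0.449 CPM per kb in the vehicle samples and 16.2 ± 0.307 CPM per kb in the IL-1β samples. These shares describe mRNA and not the trimers, and no test was made of them.

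**Figure D3:**
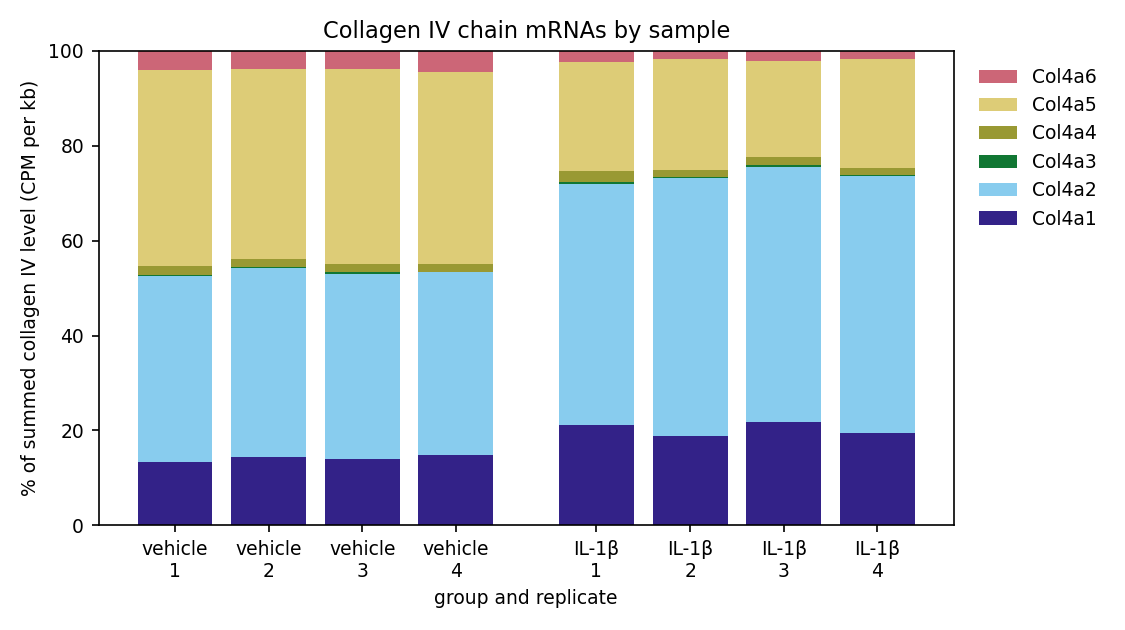
Share of each collagen IV chain mRNA in the summed level of the 6 chains (vertical axis, percent of CPM per kilobase) in each of the 8 samples. *Col4a1* and *Col4a2* make up 52.6 to 54.2% of each vehicle bar and 71.8 to 75.4% of each IL-1β bar, and *Col4a5* fills most of the rest.

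Members were then compared in 4 pairs as ratios within each sample, which need no scaling between samples. The ratio of *Col4a1* to *Col4a2*, in counts per kilobase, was 0.346 to 0.417 with IL-1β and 0.339 to 0.384 with vehicle, and the groups overlapped (difference of the log2 ratios 0.08, exact permutation test, two-sided, p = 0.286, adjusted p = 0.371 over the 4 pairs). The ratio of *Col4a5* to *Col4a6* was 9.34 to 13.6 with IL-1β and 9.24 to 10.5 with vehicle (difference 0.15, exact permutation p = 0.371, adjusted p = 0.371). A shift within these head-to-head pairs was thus not detected, and the ratio of *Col4a3* to *Col4a4* rests on few reads (difference 0.57, exact permutation p = 0.286, adjusted p = 0.371). The ratio of *Col15a1* to *Col18a1* was lower in every IL-1β sample (0.271 to 0.481) than in any vehicle sample (0.598 to 0.725). The difference of the log2 ratios was -0.88, with an exact permutation p = 0.0286, the smallest that 4 samples against 4 allow, and an adjusted p = 0.114 over the 4 pairs, which does not pass 0.05.

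**Figure D4:**
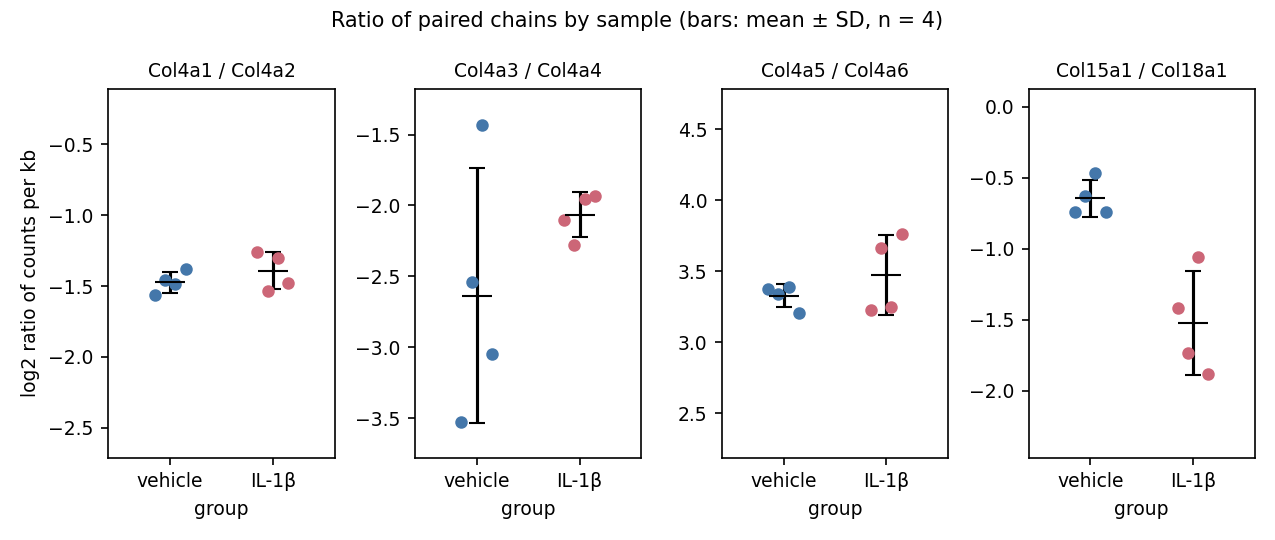
Log2 ratio of counts per kilobase (vertical axis, the same span in each panel) between the members of 4 pairs in each vehicle (blue) and IL-1β (red) sample, with mean ± SD (n = 4). The groups overlap for the 3 collagen IV pairs and are apart for *Col15a1* and *Col18a1*.

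The genes with the profile most like each member were sought by the root mean square difference of centred log2 CPM over the 8 samples, among 8762 or 8763 genes with a mean of at least 10 CPM. Nearest to *Col4a5* were *Itga6* (0.0599), *Phldb2* (0.0685) and *Marcks* (0.0755). Near to *Col4a6* were *Prkg2* (0.109) and *Kif26b* (0.109). *Col4a5* came at rank 26 for *Col4a6*, and *Col4a6* at rank 95 for *Col4a5* (a difference of 0.158). For *Col4a1* the nearest were *Slc6a6*, *Ggh* and *2410131K14Rik* (0.0415 to 0.0442), with *Col4a2* at rank 595. For *Col4a2* they included *Rtn4* (0.0270) and *Def8* (0.0309), with *Col4a1* at rank 1387. The difference between *Col4a1* and *Col4a2* was 0.0979, smaller than that between *Col4a5* and *Col4a6*. *Sp7* was among the nearest to *Col15a1* (0.171), while *Erf*, *Pccb* and *Pkdcc* were nearest to *Col18a1* (0.0430 to 0.0566) and *Tmem80*, *Rtkn* and *Zfp410* to *Col4a4* (0.0996 to 0.106). Since the 8 samples fall into 2 treatment groups, genes with a response of like size lie close together on this measure. A rank thus also depends on how many genes have a response of like size.

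Of the other collagen chains, 26 of 36 were tested, with a median log2 fold change of -0.90. They held 12 DEGs lower and 1 higher, against 2.35% and 2.86% of all genes tested. The most abundant were *Col2a1* (log2 fold change -1.98) and *Col6a1* (-0.78). The DEGs with the largest log2 fold changes were *Col25a1* (-3.29, from 2 to 6 reads per IL-1β sample), *Col27a1* (-3.16), *Col10a1* (-2.996), the collagen of hypertrophic chondrocytes, and *Col5a3* (2.24).

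Of 20 other listed components of basement membranes, 17 were tested, of which 2 were DEGs, both lower (against 2.35% of all genes tested). With an adjusted p-value under 0.05 alone 10 were lower and 4 higher, against 19.8% and 20.4% of all genes tested, and the median log2 fold change was -0.21. *Smoc2*, a calcium-binding matricellular protein, fell to 13.6 ± 0.489 CPM, with 122 ± 2.75 CPM in the vehicle samples (log2 fold change -3.17, adjusted p = 1.19e-28). *Nid2*, a nidogen that links laminin to collagen IV, fell to 119.9 ± 10.3 CPM, with 248 ± 9.66 CPM in the vehicle samples (log2 fold change -1.04, adjusted p = 4.52e-18). The most abundant of the list were *Hspg2*, which encodes perlecan, at 2985 ± 86.9 CPM with overlapping groups (log2 fold change 0.06, edgeR adjusted p = 0.0606), and *Sparc*, a collagen-binding protein (-0.61, adjusted p = 2.97e-17).

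The genes that modify, fold, export and crosslink collagen were all tested. Of these 20, 3 were DEGs and lower (2.35% of all genes tested were). With an adjusted p-value under 0.05 alone 13 were lower and 3 higher, against 19.8% and 20.4% of all genes tested (median log2 fold change -0.18). *P3h2*, a prolyl 3-hydroxylase known to act on collagen IV, was at 136.8 ± 4.51 CPM with vehicle and fell to 47.7 ± 2.84 CPM (log2 fold change -1.51, adjusted p = 2.7e-22). *Loxl2*, a lysyl oxidase known to crosslink collagen IV, fell to 93.6 ± 1.70 CPM, with 206 ± 6.54 CPM in the vehicle samples (log2 fold change -1.14, adjusted p = 3.78e-22), and *Colgalt2*, a collagen galactosyltransferase, to 4.11 ± 0.156 CPM, with 10.8 ± 1.12 CPM in the vehicle samples (log2 fold change -1.39, adjusted p = 4.48e-11). The most abundant were *Serpinh1*, the collagen chaperone HSP47 (log2 fold change -0.64), and *P4hb*, a subunit of prolyl 4-hydroxylase (-0.09).

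Among 11 listed receptors of collagens and their fragments, not all of them particular to basement membrane collagens, all were tested. DEGs were not found by edgeR or DESeq2. With an adjusted p-value under 0.05 alone 7 were lower and 2 higher in edgeR, against 19.8% and 20.4% of all genes tested. As many were lower and higher with an unadjusted p under 0.05, and the median log2 fold change was -0.12. The most abundant were *Gpc1*, a glypican (log2 fold change -0.24, adjusted p = 6.49e-07), and *Ddr2*, a receptor tyrosine kinase for collagen (-0.05, adjusted p = 0.182). Of 16 listed proteases that cut basement membrane collagens or activate plasminogen, 10 were tested, with a median log2 fold change of 0.62. Of those tested, 4 were DEGs, all higher (against 2.86% of all genes tested). With an adjusted p-value under 0.05 alone 8 were higher and 0 lower, against 20.4% and 19.8% of all genes tested. The DEGs were *Mmp3* (23.6 ± 1.48 to 1058 ± 69.3 CPM, log2 fold change 5.48), *Mmp12* (3.55, from 2 to 6 reads per vehicle sample), *Mmp13* (2.71) and *Plat*, tissue plasminogen activator (1.87). *Mmp12* and *Plat* passed the filter only through the IL-1β samples, with vehicle means of 0.265 and 0.473 CPM. *Ctsb*, a lysosomal cysteine protease, was among the most abundant, at 257 ± 13.3 CPM against 198 ± 2.58 CPM (log2 fold change 0.38).

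Markers of other cell types were set beside these results, and their part in them was not tested. Over all genes tested, 2.35% were DEGs and lower and 2.86% DEGs and higher. The endothelial list summed to 10.9 to 11.7 CPM with IL-1β, against 13.97 to 15.5 CPM with vehicle, of which *Erg* made up 8.74 and 12.4 CPM on average. The 9 mural markers summed to 502 to 566 CPM with IL-1β, against 1038 to 1117 CPM with vehicle, with 3 DEGs lower among 4 tested. *Cspg4* and *Pdgfrb* supplied most of that sum (means of 410 and 115 CPM in the IL-1β samples and of 822 and 241 CPM in the vehicle samples), while *Rgs5*, *Myh11* and *Des* had at most 8 reads in any sample. The 7 synovial fibroblast markers summed to 2033 to 2149 CPM with IL-1β, against 872 to 921 CPM with vehicle, and nearly all of that was *Prg4* (means of 2017 and 859 CPM). Of the 4 tested, 2 were DEGs and higher, while *Cd55* had means of 2.89 and 5.56 CPM. The 8 macrophage and leukocyte markers summed to 30.0 to 33.9 CPM with IL-1β, against 15.0 to 17.02 CPM with vehicle, with 1 DEG higher. *Cd68* (means of 15.0 and 9.51 CPM) and *Cd14* (14.04 and 3.86 CPM) supplied most of that sum, *Lyz2* was at 1.25 and 1.87 CPM, and *Adgre1* and *Tyrobp* had 3 or fewer reads in every sample. Epithelial and adipocyte markers, with *Krt5*, *Krt14*, *Cdh1* and *Adipoq* at 3 or fewer reads, stayed at 3.29 CPM or less in sum.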

How the data were processed

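RNA-Seq covered 4 IL-1β and 4 vehicle samples, grouped by their titles. The authors trimmed reads with cutadapt, aligned them to mm10 (GENCODE vM20) with STAR (2.4.2a in the submitters' processing notes, another version in the methods) and counted them with featureCounts. The deposited values are whole-number counts per gene symbol and sample, beside a gene length in bases (another unit, as deposited), which equals the summed exon length in GENCODE vM21 for the 8 members. Whether these counts precede or follow the RUVseq batch correction in the methods is not stated. Strandedness is not given in the sources used here.

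The 14404 genes whose CPM exceeded 1 in 4 or more samples were fitted by edgeR 4.0.16 (limma 3.58.1, R 4.3.3) with TMM and treatment as the only term, and p-values were Benjamini-Hochberg adjusted over all genes tested. The methods use DESeq2, here an alternative (1.42.0). Ratios added 0.5 counts and likeness 0.5 CPM. Other steps ran in Python 3.11.15 (pandas 2.3.3, numpy 2.4.6, scipy 1.17.1, matplotlib 3.10.9).

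The members and lists were chosen with earlier results of these data known. Named were all 8 members, up to 4 DEGs with the largest change and the 2 most abundant genes of each list, marker lists by counts and sums, and the 3 genes nearest in profile to each tested member, some of which are not reported here. Promoter windows came from RefSeq. Protein sequences were not analysed here. The floor of 3 counts covers only counting error, as PCR copies of one molecule cannot be recognised here. The alternatives changed the test, the normalization, the filter, the block, the pseudocount, the length, 1 RUVs factor, the fold threshold and each sample left out.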

Additional observations from a re-analysis of the deposited data

How the results depend on the processing

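The log2 fold changes of the 7 tested members kept their direction in every alternative, and their side of an adjusted p of 0.05 in all of them except glmTreat. Under DESeq2, other normalizations and filters, the replicate block and 1 RUVs factor they lay between 0.32 and 0.33 for *Col4a1*, 0.24 and 0.25 for *Col4a2*, -0.24 and -0.21 for *Col4a4*, -1.07 and -1.06 for *Col4a5*, -1.22 and -1.21 for *Col4a6*, -1.32 and -1.29 for *Col15a1*, and -0.47 and -0.46 for *Col18a1*. With each sample left out, *Col15a1* ranged from -1.53 to -1.17 and *Col4a4*, which did not pass, from -0.38 (without IL-1β replicate 1) to -0.14 (without vehicle replicate 1). With glmTreat, which tests against a log2 fold change of 1 by construction, the values were 0.33 for *Col4a1*, 0.25 for *Col4a2*, -1.06 for *Col4a5*, -1.21 for *Col4a6*, -1.29 for *Col15a1* and -0.46 for *Col18a1*, none passed, the members that were DEGs and lower went from 3 to 0, and the other basement membrane genes that were DEGs and lower from 2 to 1. With a CPM above 1 required in all 8 samples (12964 genes tested), 2 of the 4 protease DEGs and 0 of the other collagen DEGs that were higher were left. Leaving out single samples gave 0 to 1 higher DEGs among the other basement membrane genes, the 1 without vehicle replicate 1. DEGs over all genes, 412 higher and 339 lower, were 266 higher with that stricter filter, 635 and 571 without a filter and 262 and 175 with glmTreat.

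The replicate numbers do not pair the samples as far as the data show (r of deviations from the group means -0.0653 to 0.0321 across genes between same-numbered samples). With the replicate block, the members had 3 lower DEGs, as without it, and no call changed. For the pair ratios the block leaves 4 differences, whose smallest possible p of 0.125 cannot pass, as 3 samples against 4 cannot (0.0571). Without single samples the log2 ratio difference was -1.04 to -0.76 for *Col15a1* to *Col18a1*, 0.03 to 0.12 for *Col4a1* to *Col4a2*, 0.27 to 0.97 for *Col4a3* to *Col4a4* and 0.05 to 0.23 for *Col4a5* to *Col4a6*, and none passed. By longest coding length the shares of *Col4a1* with *Col4a2* and of *Col4a5* with *Col4a6* moved by less than 1 SD, but that of *Col4a3* with *Col4a4* was 3.15% with IL-1β and 3.03% with vehicle, in place of 2.06% and 1.97%. With IL-1β, the mean shares by coding length put *Col4a1* (22.2%) before *Col4a5* (21.8%) and *Col4a4* (2.58%) before *Col4a6* (2.32%), with overlapping ranges. By gene length both orders were the other way. Low read numbers limit *Col4a3*, *Col4a4*, *Col4a6* and, with 36 to 82 reads per IL-1β sample, *Col15a1*.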
